A study of Mus musculus with 8 samples.

Results

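The aryl hydrocarbon receptor (AHR) pathway was followed through 8 genes, chosen by name: the receptor Ahr, its partner Arnt, its repressor Ahrr, and the target genes Cyp1a1, Cyp1b1, Tiparp, Nqo1 and Aldh3a1. All 8 were found among the 35976 genes of the table, and all 8 lay above the mean log2 level of 3 that a gene needed to be tested. The cells were C2C12, an established mouse myoblast line, and total RNA was taken 48 h after transfection. In 4 libraries the cells carried an ATAD2 shRNA (the Atad2 libraries), and in 4 they carried a non-targeting shRNA (the control libraries). The cells were otherwise labelled alike, as myoblasts of skeletal muscle, with no AHR ligand named in the labels. No label tells if the 4 libraries per group are separate cultures or repeats of 1, so each p-value speaks only of the spread among these libraries, which may be technical.

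AHR is a ligand-activated transcription factor of the bHLH-PAS family. It waits in the cytosol with chaperones, moves to the nucleus when it binds ligands such as dioxins or tryptophan metabolites, pairs with ARNT and binds elements with a GCGTG core. Its battery of targets oxidises and conjugates foreign compounds. Some of these genes, Nqo1 and Aldh3a1 among them, are also described as targets of NRF2, the factor of the antioxidant response, while Cyp1a1, Cyp1b1, Tiparp and Ahrr are best known as AHR targets. The last are called AHR-only targets here, a name that leaves other described inputs aside. The comparison asked whether the AHR-only targets moved as the shared ones did.

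The members were proposed with results of this same contrast in view. Their levels and changes are therefore given as a description, without p-values. Levels are log2(normalized count + 1), and a log2 fold change is Atad2 over control libraries ± SE. For weak genes, such a fold change comes out smaller than the ratio of counts.

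In short, the AHR-only targets did not share a direction. Cyp1a1 was 8.23-fold higher in the Atad2 libraries, Cyp1b1 was 2.28-fold lower, and Tiparp and Ahrr were slightly higher. Both shared targets were higher, Nqo1 2.24-fold and Aldh3a1 7.40-fold. The log2 fold changes of the AHR-only targets ran from -1.19 to 3.04, and those of the shared targets from 1.16 to 2.89.

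Upstream sequence was not used to choose the genes, and it is shown to set the AHR-only targets that went opposite ways beside Ahrr and the shared target Nqo1. RefSeq starts on GRCm38.p6 were matched for 6 of the 8 genes, namely Ahrr, Arnt, Cyp1a1, Cyp1b1, Tiparp and Nqo1. The 250 bases before the start are given 5′ to 3′ on the gene's strand. Capitals mark the AHR-ARNT core GCGTG and the core of the NRF2 antioxidant element TGANNNNGC, each on either strand.
Cyp1a1, plus strand, chr9:57697363-57697612: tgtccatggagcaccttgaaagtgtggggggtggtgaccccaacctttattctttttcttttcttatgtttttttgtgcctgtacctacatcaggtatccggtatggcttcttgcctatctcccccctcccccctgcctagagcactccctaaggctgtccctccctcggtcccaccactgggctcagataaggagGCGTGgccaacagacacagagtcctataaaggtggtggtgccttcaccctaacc
Cyp1b1, minus strand, chr17:79715062-79715311: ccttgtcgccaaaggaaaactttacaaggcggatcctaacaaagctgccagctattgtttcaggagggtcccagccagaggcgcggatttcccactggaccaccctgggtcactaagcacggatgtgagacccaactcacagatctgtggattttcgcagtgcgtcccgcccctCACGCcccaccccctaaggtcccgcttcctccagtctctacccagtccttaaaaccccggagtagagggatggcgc
Ahrr, minus strand, chr13:74292332-74292581: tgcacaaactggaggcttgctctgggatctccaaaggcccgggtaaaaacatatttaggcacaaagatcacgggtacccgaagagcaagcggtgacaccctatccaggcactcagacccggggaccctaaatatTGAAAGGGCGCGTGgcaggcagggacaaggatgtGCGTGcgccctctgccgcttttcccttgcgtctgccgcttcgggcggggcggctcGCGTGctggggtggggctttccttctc
Nqo1, minus strand, chr8:107403206-107403455: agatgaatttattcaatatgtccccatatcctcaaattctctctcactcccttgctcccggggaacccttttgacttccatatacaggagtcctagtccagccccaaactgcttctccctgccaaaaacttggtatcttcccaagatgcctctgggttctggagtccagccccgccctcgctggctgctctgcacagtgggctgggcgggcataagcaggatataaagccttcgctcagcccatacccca

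Within 300 bases around the start (250 before and 50 after), the GCGTG core was present at 5 of the 6 genes, against 32.4% of 32851 RefSeq promoters of that length. Cyp1a1 and Cyp1b1 each held 1 match, as did Arnt and Tiparp, and Ahrr held 3. Nqo1 held none. The TGANNNNGC core was present at 3 of the 6 genes (Ahrr, Arnt and Tiparp), against 41.3% of all promoters. The E-box CACGTG, which other bHLH factors bind, was at 0 of the 6 and at 7.15% of all promoters. No match overlapped another. Cyp1a1 and Cyp1b1 carried the same motif count in this window, and their RNA levels went opposite ways. Whether the motif bears on either level was not tested. The RefSeq start of Cyp1a1 lies inside the gene as annotated by GENCODE M21 (57687928 to 57703824). The bases before that annotated gene were not searched. A match is only a run of letters, and elements outside the window were not looked for. All of the 6 genes but Arnt were chosen as AHR targets, and AHR binds a GCGTG core, so its share here is no independent evidence. The RefSeq promoters set beside them were not matched for base content.

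**Figure D1:**
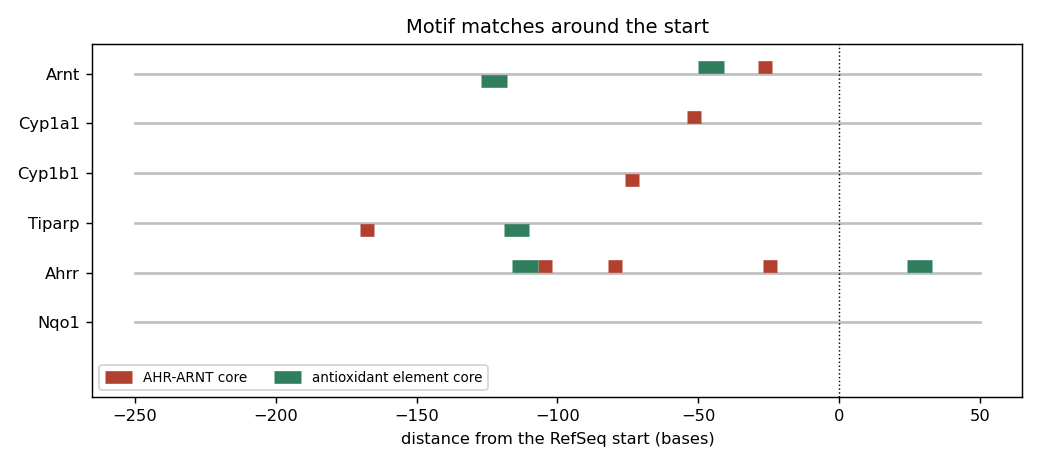
Matches to the AHR-ARNT core (red) and to the antioxidant element core (green) from 250 bases before to 50 bases after the RefSeq start of 6 genes. The x axis is the distance from the start in bases. Marks above a line are on the gene's strand and marks below it on the other strand. Nqo1 has no match to either motif, and Ahrr has 3 matches to the AHR-ARNT core.

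The knockdown target Atad2, a chromatin ATPase with a bromodomain, averaged 11.93 ± 0.14 in the Atad2 libraries and 14.67 ± 0.06 in the control libraries (SD, n = 4 each). Atad2 libraries held 50.3 to 72.3 Mreads (megareads) and control libraries 61.4 to 73.0 Mreads, as recovered from the table. Counting error alone puts the floor for a gene with 0 reads at 0.0411 to 0.0596 reads per Mread, taken as 3 reads in a library. Myoblast markers were all expressed: Myod1, Myf5, Des, Cdh15, Itga7 and Chrna1 passed the filter. At a limma adjusted p under 0.05, which 30.8% of all genes tested passed as higher and 29.6% as lower, 3 of these 6 were called higher and 3 lower, the last being Myf5 (-1.28 ± 0.10 on the log2 scale), Cdh15 (-0.96 ± 0.05) and Chrna1 (-0.25 ± 0.04). Most markers of other cells lay below the filter. Of the fibroblast markers, Thy1, Lum and Tcf21 were at 0 in every library, as were the macrophage markers Adgre1 and Tyrobp and the epithelial marker Epcam. The 5 fibroblast markers summed to 4893 to 5066 normalized counts in the Atad2 libraries and 1991 to 2086 in the control libraries, and 2 of 2 tested were called higher. These were Pdgfra (1.31 ± 0.04 on the log2 scale) and Dcn (0.74 ± 0.25, with overlapping groups). The 6 macrophage markers summed to 549 to 678 normalized counts in the Atad2 libraries and 248 to 305 in the control libraries, with 1 of 2 tested (Cd68) called higher. The part of these genes in the results was not tested. The 4 endothelial and the 5 epithelial or liver markers summed to at most 42.9 and 19.2 normalized counts in the Atad2 libraries and 41.4 and 79.8 in the control libraries. The 2 endothelial markers tested were not called. The 1 epithelial or liver marker tested, Cdh1, was called lower (-3.25 ± 0.47 on the log2 scale).

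The receptor and its partner went in opposite directions. Ahr (chromosome 12, 35497974 to 35535038, minus strand, GRCm38, protein-coding), the ligand-binding subunit, lay at 12.04, 12.02, 12.05 and 12.02 in the Atad2 libraries, against 11.26, 11.43, 11.34 and 11.34 in the control libraries. Every Atad2 library was above every control library, with a gap of 0.59 between the groups. The log2 fold change was 0.69 ± 0.04, or 1.61-fold higher.

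Arnt (chromosome 3, 95434388 to 95497240, plus strand), the shared partner of AHR and the hypoxia-inducible factors, lay at 11.40, 11.39, 11.52 and 11.53 in the Atad2 libraries, against 11.92, 11.85, 11.94 and 11.89 in the control libraries. Again the groups did not overlap, with every Atad2 library below the controls, and the difference was -0.44 ± 0.04 on the log2 scale, or 1.35-fold lower. Per kb of exon, Ahr stood at 1.82 to 2.02 times Arnt in the Atad2 libraries and at 0.825 to 0.968 times Arnt in the control libraries, so Ahr was the higher of the pair in every Atad2 library and Arnt in every control library. In bulk RNA, a change in the number of cells that express a gene and a change in RNA per cell cannot be told apart.

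Cyp1a1 (chromosome 9, 57687928 to 57703824, plus strand) encodes a P450 enzyme that oxidises polycyclic aromatic hydrocarbons and is the classical readout of AHR activity. It lay at 11.82, 11.58, 11.66 and 11.19 in the Atad2 libraries, against 8.64, 8.14, 8.18 and 9.13 in the control libraries. The groups were separated by 2.06, although control replicate 4 was the highest control and Atad2 replicate 4 the lowest of its group. The log2 fold change was 3.04 ± 0.16, rank 40 from the top of the 14703 genes tested. Read counts were 2014 to 3955 per Atad2 library and 280 to 659 per control library.

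Cyp1b1 (chromosome 17, 79701537 to 79715061, minus strand) encodes the related extrahepatic enzyme that acts on hydrocarbons and estrogens. It lay at 13.21, 13.13, 13.13 and 13.13 in the Atad2 libraries, against 14.34, 14.38, 14.38 and 14.26 in the control libraries. Every Atad2 library was lower, and the groups were separated by 1.05, with a log2 fold change of -1.19 ± 0.03. It stayed well expressed, at 6956 to 10402 reads per Atad2 library and 21182 to 23180 per control library.

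The balance of these P450 genes changed with them. Per kb of exon, Cyp1b1 stood at 1.26, 1.39, 1.32 and 1.84 times Cyp1a1 in the Atad2 libraries, against 24.9, 36.1, 35.2 and 16.8 times in the control libraries. Cyp1b1 remained the higher of the pair in every library, by a much smaller margin in the Atad2 libraries. Cyp1a2, the third gene of the family and mainly a liver enzyme, had 2 to 12 reads per Atad2 library and 0 to 6 per control library, too few to be tested, and its groups overlapped.

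The AHR-only targets that act as feedback differed little. Tiparp (chromosome 3, 65528410 to 65555518, plus strand) encodes an ADP-ribosyltransferase that modifies AHR and lowers its activity. It lay at 12.81, 12.87, 12.76 and 12.76 in the Atad2 libraries, against 12.44, 12.47, 12.59 and 12.50 in the control libraries. The groups did not overlap, and the gap was 0.17. Tiparp was 1.23-fold higher, a log2 fold change of 0.30 ± 0.04.

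Ahrr (chromosome 13, 74211118 to 74292331, minus strand), which encodes a repressor that competes with AHR for ARNT, was the weakest member per kb of exon, with 174 to 241 reads per Atad2 library and 102 to 215 per control library. It lay at 7.79, 7.67, 7.88 and 7.66 in the Atad2 libraries, against 7.52, 6.70, 7.65 and 7.27 in the control libraries. The lowest Atad2 library exceeded the highest control by only 0.013, and control replicate 2 was far below the others of its group. The log2 fold change was 0.47 ± 0.18, and without control replicate 2 it was 0.27.

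**Figure D2:**
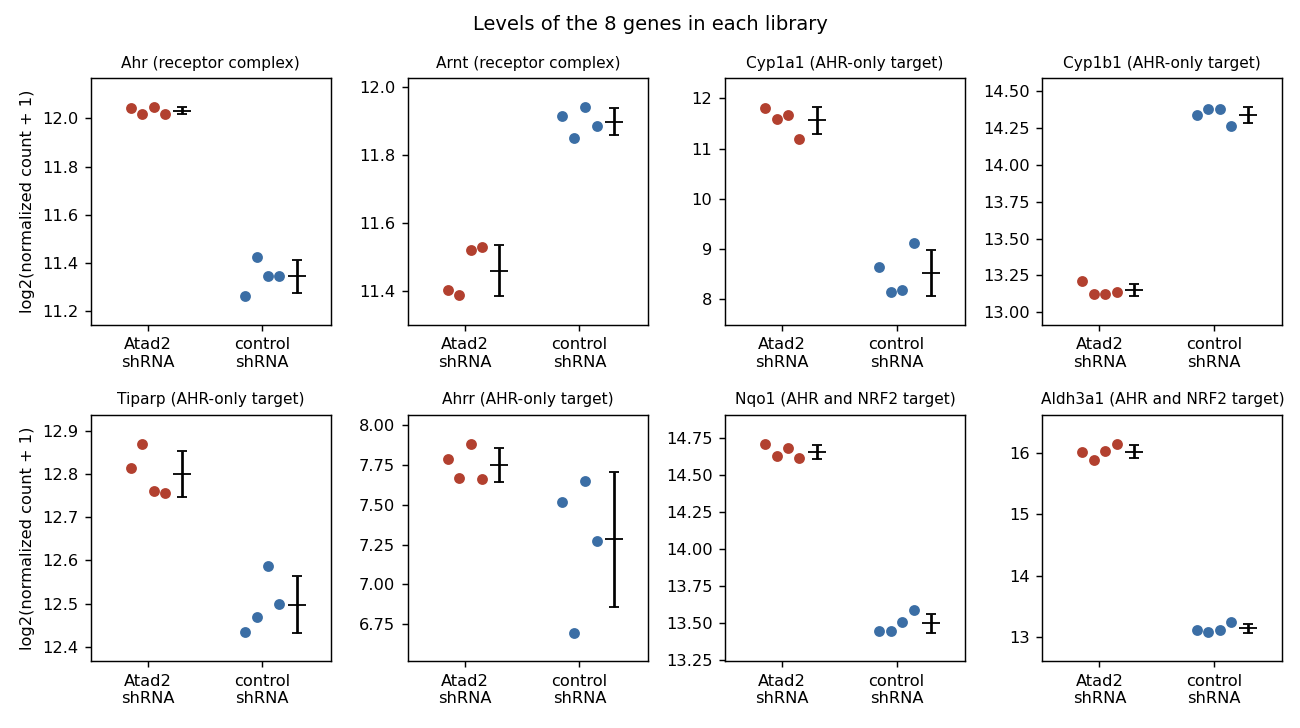
Levels of the 8 genes as log2(normalized count + 1) in each library, Atad2 shRNA on the left (red) and control shRNA on the right (blue). Points are libraries, and black marks are the mean ± SD of 4 libraries. Each panel has its own axis range, which does not start at 0. Cyp1a1 and Aldh3a1 show the widest separation, and Ahrr the narrowest, at 0.013.

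Both shared targets were higher in the Atad2 libraries. Nqo1 (chromosome 8, 107388225 to 107403206, minus strand) encodes a quinone reductase that keeps quinones from cycling through radicals. It lay at 14.71, 14.63, 14.68 and 14.62 in the Atad2 libraries, against 13.45, 13.45, 13.51 and 13.59 in the control libraries. The groups were separated by 1.03, and the log2 fold change was 1.16 ± 0.03.

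Aldh3a1 (chromosome 11, 61207537 to 61218421, plus strand) encodes an aldehyde dehydrogenase of the cytosol that clears aldehydes from lipid peroxidation. It lay at 16.02, 15.89, 16.04 and 16.16 in the Atad2 libraries, against 13.11, 13.08, 13.12 and 13.25 in the control libraries. Every Atad2 library was higher by at least 2.64. The log2 fold change was 2.89 ± 0.04, rank 46 from the top of all genes tested, close to the rank of Cyp1a1. At 52248 to 72755 reads per Atad2 library, against 8602 to 11446 per control library, it was well covered in both groups. Per kb of exon it stood at 1.92 to 2.33 times Nqo1 in the Atad2 libraries and at 0.611 to 0.631 times Nqo1 in the control libraries.

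**Figure D3:**
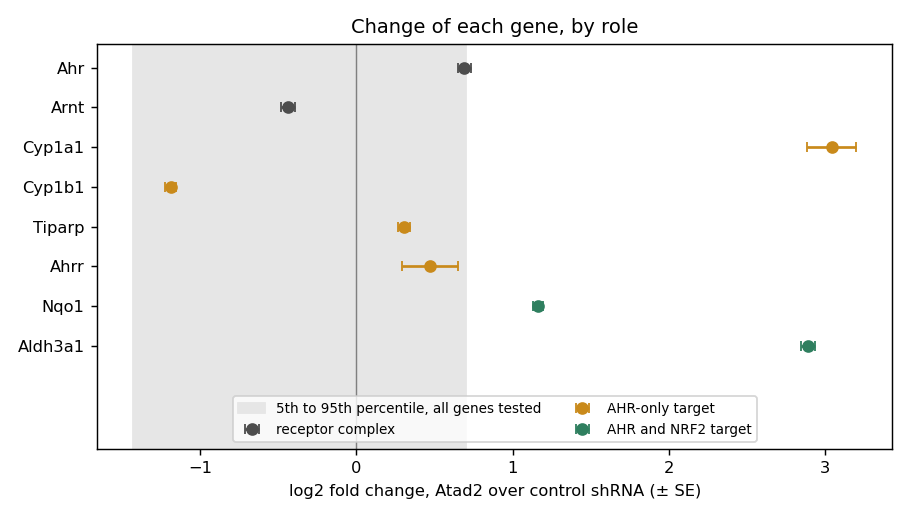
Log2 fold change of each gene, Atad2 over control shRNA, with its SE as bars, coloured by role. The grey band spans the 5th to 95th percentile of all genes tested, -1.43 to 0.70. Cyp1a1 (3.04), Aldh3a1 (2.89) and Nqo1 (1.16) lie above the band, and the others lie inside it.

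Counted over the members, 6 were called higher and 2 lower at an adjusted p under 0.05, a threshold that 60.4% of all genes tested passed (30.8% higher and 29.6% lower). The groups did not overlap for any of the 8, and for 53.5% of all genes tested. The median log2 fold change was 0.58 over the members and -0.01 over all genes tested. Since the contrast was used in choosing the genes, nothing is read from these counts. The Ahrr call was lost under 8 of 17 alternatives, among them leaving out Atad2 replicate 1 or 3 or control replicate 2 or 4, while the other 7 calls were lost under none. The alternatives reuse the libraries that guided the choice, so nothing is read from the kept calls either.

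Levels between genes were compared per kb of exon, as normalized counts divided by the total length of the exons in the GENCODE M21 annotation. In the Atad2 libraries the order was Aldh3a1 (34409 ± 2588 per kb, SD, n = 4), Nqo1 (16681 ± 541), Tiparp (1638 ± 61.3), Cyp1b1 (1557 ± 46.5), Cyp1a1 (1099 ± 194), Ahr (680 ± 7.40), Arnt (352 ± 18.4) and Ahrr (22.8 ± 1.71). In the control libraries it was Nqo1 (7461 ± 339), Aldh3a1 (4646 ± 241), Cyp1b1 (3553 ± 134), Tiparp (1328 ± 61.3), Arnt (477 ± 13.0), Ahr (422 ± 19.7), Cyp1a1 (137 ± 46.4) and Ahrr (16.9 ± 4.49). The ranges of mean ± 1 SD overlapped for Tiparp and Cyp1b1 in the Atad2 libraries, and for no other neighbours in either order. The exon total counts every annotated transcript, so a gene used mainly as a short transcript is understated.

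**Figure D4:**
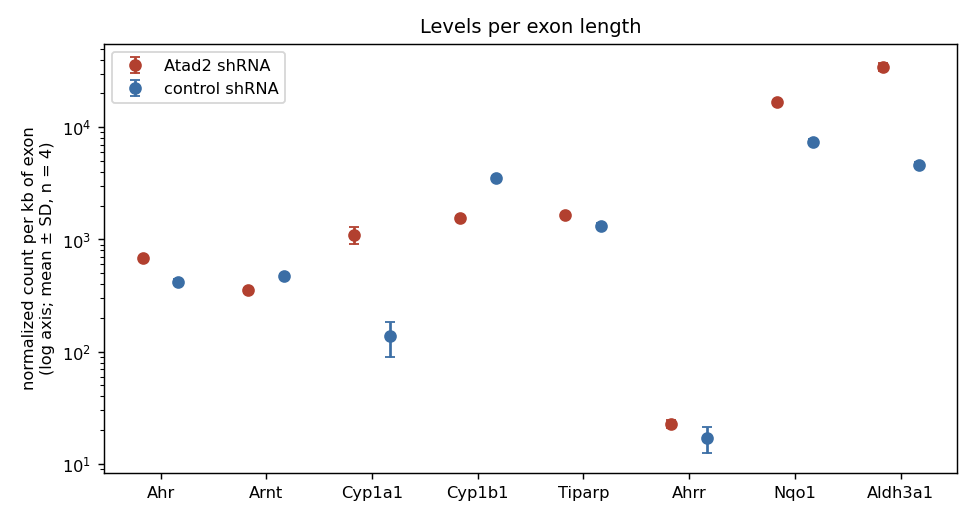
Normalized count per kb of exon on a log axis, mean ± SD of 4 libraries, Atad2 shRNA (red) left of control shRNA (blue) for each gene. Nqo1 and Aldh3a1 are the highest in both groups and Ahrr the lowest, and Cyp1a1 lies above Ahr in the Atad2 libraries (1099 per kb) and below it in the control libraries (137 per kb).

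The spread between libraries of one group was not used to choose the genes. For Cyp1a1 the pooled SD within groups was 0.38 on the log2 scale, larger than that of 99.9% of the 1715 genes whose mean level lay within 0.5 of its own, whose median was 0.09. For Aldh3a1 the pooled SD was 0.09, larger than that of 97.4% of 420 such genes, and for Ahrr it was 0.31, larger than that of 84.8% of 722. The mean level used for this was taken over both groups. Group means lay far apart for Cyp1a1 (11.56 Atad2, 8.52 control) and Aldh3a1 (16.0 and 13.1). Their percentages therefore do not speak of genes at either group's own level. The pooled SDs of Ahr, Arnt, Cyp1b1, Tiparp and Nqo1 lay between 0.049 and 0.060, above 28.3% to 72.9% of genes of similar level. Among the Atad2 libraries, Cyp1a1, Ahrr and Tiparp were all lowest in replicate 4, and Cyp1b1 was highest in replicate 1. Among the control libraries, Cyp1a1 and Ahrr were lowest in replicate 2, Cyp1a1 was highest in replicate 4, where Cyp1b1 was lowest, and the other AHR-only targets were highest in replicate 3. Some of these places were near ties. In the Atad2 libraries, Tiparp had 12.756 in replicate 4 and 12.762 in replicate 3, and Ahrr 7.66 in replicate 4 and 7.671 in replicate 2. In the control libraries, Cyp1b1 had 14.38 in replicate 3 and 14.379 in replicate 2.

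Other genes described as AHR targets also went both ways. Of 15 tested members of a list of 19, 6 rose, 5 fell and 4 did not pass. Over all genes tested, 30.8% were called higher and 29.6% lower, so this split is not read as a result about the list. Its median log2 fold change was 0.14. By at least 2-fold, 5 of its genes were called higher and 2 lower, beside 2.52% and 8.61% of all genes tested. The list was chosen with earlier results of these data known, so these counts are no independent evidence. Serpinb2, a protease inhibitor that dioxin induces in human cells, rose by 2.68 ± 0.10 (limma adjusted p = 5.4e-15), to 12.06 ± 0.28 against 9.38 ± 0.17 in the control libraries. Ugt1a6a, a glucuronosyltransferase of the classical battery that NRF2 also drives, rose by 1.09 ± 0.08 (8.9e-11); the genes of its locus share exons, so its own reads are uncertain. Ptgs2, the inducible cyclooxygenase, rose by 1.02 ± 0.07 (1.0e-10). Slc46a3, a lysosomal transporter, changed by -2.34 ± 0.33 (limma adjusted p = 3.6e-06), the cytokine signalling inhibitor Socs2 by -0.51 ± 0.08 and the amino acid transporter Slc7a5 by -0.26 ± 0.05.

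NRF2 targets moved mainly one way. Of 33 tested members of a list of 34 that leaves out Nqo1 and Aldh3a1, 29 rose, 3 fell and 1 did not pass. Over all genes tested, 30.8% were called higher and 29.6% lower. The list had a median log2 fold change of 0.99, and 16 of its genes rose by at least 2-fold. Of all genes tested, 2.52% were called higher by that much and 8.61% lower. Earlier results of these data had already shown this direction, so the list is no independent evidence. Ptgr1, which reduces reactive aldehydes, rose by 1.99 ± 0.03 (limma adjusted p = 1.1e-20), Gsta4, a glutathione transferase for lipid aldehydes, by 2.12 ± 0.04 and the thioredoxin reductase gene Txnrd1 by 1.76 ± 0.04. Gclm, the modifier subunit of glutathione synthesis, rose by 1.72 ± 0.04, the cystine exchanger gene Slc7a11 by 3.42 ± 0.08 and the heme oxygenase gene Hmox1 by 0.83 ± 0.06 (limma adjusted p at most 4.1e-10). The epoxide hydrolase gene Ephx1 changed by -0.47 ± 0.05 and G6pdx, the entry enzyme of the pentose phosphate pathway, by -0.18 ± 0.03 (limma adjusted p = 2.2e-08 and 5.5e-05). Tkt changed by -0.10 ± 0.04 (limma adjusted p = 0.048), with overlapping groups, and it failed the threshold in 9 of 17 alternatives, where limma's adjusted p ran between 0.00087 and 0.19 over all 17. Removing Atad2 replicate 1, 2 or 3 or control replicate 1, 2 or 4 was enough (log2 fold change -0.12 to -0.07 over all 8 single-library removals).

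**Figure D5:**
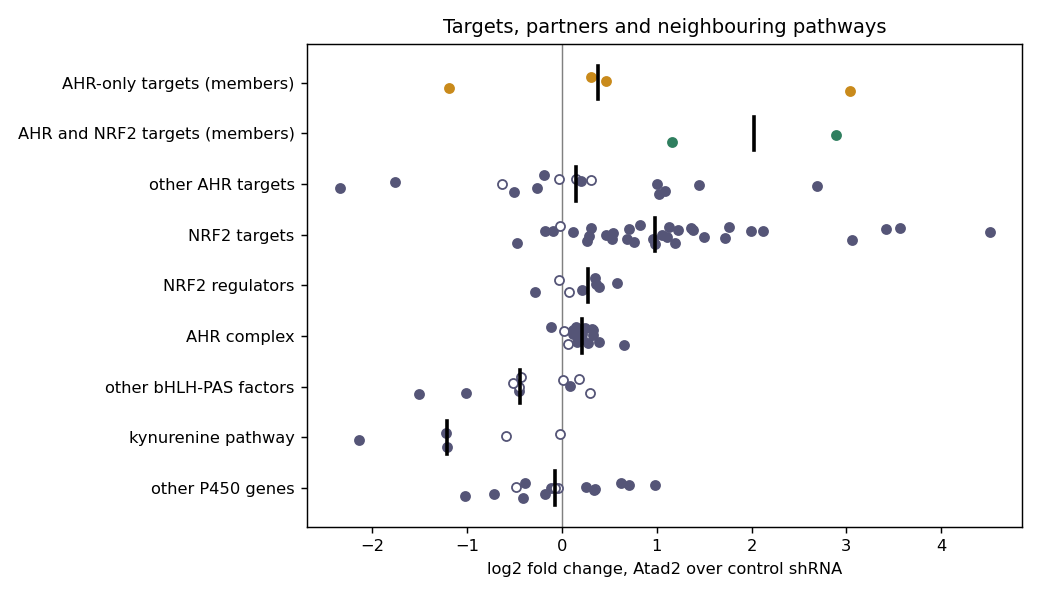
Log2 fold change, Atad2 over control shRNA, of each tested gene in the AHR-only and shared member groups and in 7 lists. Filled points passed an adjusted p under 0.05 and open points did not; black bars are medians. Other AHR targets lie on both sides of 0 (median 0.14), NRF2 targets lie mainly above it (median 0.99), and the tested kynurenine genes lie below it (median -1.22).

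The regulators of NRF2 were mostly higher by small amounts. Among 8 genes, 5 were called higher, 1 lower and 2 neither, against 30.8% higher and 29.6% lower over all genes tested, and the median log2 fold change was 0.28. Nfe2l2, which encodes NRF2, rose by 0.34 ± 0.03 (limma adjusted p = 3.6e-08), and Keap1, which marks NRF2 for breakdown, rose by 0.22 ± 0.04 (0.00024). The small MAF partner Mafg rose by 0.39 ± 0.03 and the repressor Bach1 by 0.36 ± 0.04, while the small MAF gene Mafk changed by -0.28 ± 0.07 (limma adjusted p = 0.0010).

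Genes of the AHR protein complex and its coregulators were also mostly higher. Of 16 tested, 13 were called higher, 1 was called lower and 2 were not called, where 30.8% of all genes tested were higher and 29.6% lower. The list had a median log2 fold change of 0.21 and no change of 2-fold or more. Under quantile normalization the counts were 9 higher and 2 lower, and with limma-voom on recovered reads 10 higher and 1 lower. The corepressor gene Nrip1 rose by 0.66 ± 0.04 (limma adjusted p = 2.6e-12), Ptges3, the co-chaperone that stabilises the cytosolic complex with HSP90, by 0.39 ± 0.03 and the acetyltransferase gene Ep300 by 0.33 ± 0.03. The coactivator gene Ncoa2 changed by -0.11 ± 0.04 (limma adjusted p = 0.012), a call lost without control replicate 3 (log2 fold change -0.09).

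Of the other bHLH-PAS factors, 10 of 13 were tested, and 1 rose, 3 fell and 6 did not pass (median log2 fold change -0.44). The share that fell was thus close to the 29.6% of all genes tested that were lower, and 30.8% were higher. Hif1a, the oxygen-regulated partner of ARNT, changed by -0.45 ± 0.03 (limma adjusted p = 4.5e-11), a size close to that of Arnt itself. The clock factor Arntl2 changed by -1.51 ± 0.28 and the activity-induced factor Npas4 by -1.01 ± 0.21, with 22 to 72 and 48 to 78 reads per Atad2 library against 89 to 146 and 117 to 149 per control library. Clock rose by 0.09 ± 0.03 (limma adjusted p = 0.025), but missed the threshold in 10 of 17 alternatives, with limma's adjusted p between 0.0059 and 0.87 over all 17. Removing Atad2 replicate 1 or 2 or control replicate 1, 3 or 4 was enough (0.07 to 0.11 over all 8 single-library removals). With quantile normalization its sign was reversed (-0.01).

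Enzymes that break down tryptophan, a source of AHR ligands, were weakly expressed. Of 12, 7 lay below the filter, 4 of them at 0 in every library (Ido1, Tdo2, Kynu and Haao). Of the 5 tested, 3 fell, none rose and 2 did not pass, while 60.4% of all genes tested were called in either direction and 29.6% as lower. Afmid, the formamidase that yields kynurenine, changed by -1.22 ± 0.10 (limma adjusted p = 1.0e-09), the aminotransferase gene Kyat3 by -2.14 ± 0.23 and Ido2 by -1.22 ± 0.27. Kyat3 and Ido2 rested on few reads. Kyat3 had 27 to 65 reads per Atad2 library and 160 to 263 per control library. Ido2 had 25 to 38 reads per Atad2 library and 82 to 103 per control library. Afmid overlaps Tk1 in the annotation, so reads may be shared.

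Of 11 other P450 genes tested, 2 were called higher (Cyp39a1 and Cyp46a1), 5 were called lower and 4 did not pass the threshold, beside 30.8% of all genes tested higher and 29.6% lower. The groups overlapped for Cyp46a1, whose call was lost without Atad2 replicate 1 or 3 or control replicate 1 or 4 (log2 fold change 0.49 to 0.73 over the 8 single-library removals, 0.62 with all libraries). The same list held 4 genes that supply electrons to P450 enzymes, of which 3 rose and 1 fell. Cyb5a (cytochrome b5) rose by 0.98 ± 0.05 (limma adjusted p = 3.5e-13), Por (P450 oxidoreductase) by 0.70 ± 0.04 and Cyb5r3 by 0.25 ± 0.03, while Cyb5b, the cytochrome b5 of the outer mitochondrial membrane, changed by -0.12 ± 0.03 (limma adjusted p = 0.0020). The median log2 fold change over all 15 was -0.07. The retinoic acid hydroxylase gene Cyp26b1 changed by -1.02 ± 0.13, the fatty acid hydroxylase gene Cyp4v3 by -0.72 ± 0.10 and the sterol demethylase gene Cyp51 by -0.18 ± 0.04. The Cyp51 call was lost with no filter (limma adjusted p = 0.076).

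The genes whose pattern was most like that of Nqo1 and of Cyp1b1, the AHR-only target with the highest mean level, were found by the mean absolute difference of the 8 log2 values after each gene was centred on its control mean, over 12799 genes. For Nqo1 these were the transaldolase gene Taldo1 (difference 0.034), Ikbkg, a regulator of NF-kB kinases (0.038), and the phosphogluconate dehydrogenase gene Pgd (0.040), which rose by 1.20 ± 0.04, 1.15 ± 0.03 and 1.104 ± 0.03. Ikbkg overlaps G6pdx in the annotation, so reads may be shared. For Cyp1b1 they were Paip2b, a translation inhibitor (0.030), the linker histone gene H1f0 (0.052) and the proteoglycan gene Sdc4 (0.053), which changed by -1.16 ± 0.05, -1.105 ± 0.04 and -1.13 ± 0.04.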

How the data were processed

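The submitters' processing notes name HTSeq 0.13.5, DESeq2, SAMtools 1.1 and bcl2fastq 2.20 with build mm10. Which aligner, gene models and strand setting they used, and in which order the tools ran, is not given in the sources used here. Per the labels' protocols, cDNA was made with a directional second-strand kit. The values the authors deposited are log2 values, each log2(x + 1) with x the count over a library's size factor, a form read from the values: low values, converted back, lay within 0.1 reads of whole multiples of 1 step for 100% of those under 50 reads. Reads recovered with that step gave depths and read ranges.

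Genes with a mean above 3 were tested with limma's lmFit and trended eBayes (limma 3.58.1, R 4.3.3), two-sided, Benjamini-Hochberg over all 14703 genes, threshold 0.05, without covariates. The procedure was also run on simulated data, with far fewer changed genes than were called here and the same spread setting for every gene. That setting is unlike these data, so nothing is read from the run. Gene positions and exon lengths are from GENCODE M21 (GRCm38, which mm10 names); Tiparp, Ahr and Arnt each overlap 1 other annotated gene. Upstream sequences are from RefSeq (GRCm38.p6). Tables and plots were made with Python 3.11.15, NumPy 2.4.6, pandas 2.3.3 and matplotlib 3.10.9.

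The members and lists were chosen with earlier results of these data known. Named genes are the members, Atad2, 8 fixed genes, up to 3 called genes per list and direction by adjusted p, and the 3 genes most like Nqo1 and Cyp1b1; Cyp1a2, Cyb5b, Cyp39a1 and Cyp46a1 were added, and the P450 list was divided, after their values were seen. A gene that this rule names is not reported here. Alternatives were an offset of 8, a mean above 5, no filter, median centring, quantile normalization, no trend, the replicate block, leaving out each library, limma-voom on recovered reads and an adjusted p under 0.01. For promoters, the upstream bases alone were the alternative.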

Additional observations from a re-analysis of the deposited data

Results flagged for a closer look

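Of 104 groups of 4 libraries looked at (52 genes in 2 groups), 7 held a library whose gap to the nearest other, as a share of the group's range, exceeded the critical value for 4 values. Chance flags about 1 in 20 groups. Among the members this was Cyp1b1, whose Atad2 replicate 1 (13.21, against a median of 13.13 for the other Atad2 libraries) had a share of 0.920. That distance is small beside the difference between groups. The other 6 were among named genes outside the 8: Ep300 in Atad2 replicate 4 (lowest, share 0.853) and control replicate 3 (highest, 0.859), Ephx1 in control replicate 2 (lowest, 0.855), Tkt in Atad2 replicate 4 (highest, 0.850), Ido2 in control replicate 2 (highest, 0.931) and H1f0 in Atad2 replicate 2 (highest, 0.891).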

How the results depend on the processing

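All 8 members kept the sign of their log2 fold change under 16 alternatives. With quantile normalization the values were 0.62 for Ahr, 0.83 for Ahrr, -0.51 for Arnt, -1.30 for Cyp1b1, 0.20 for Tiparp, 1.05 for Nqo1 and 2.78 for Aldh3a1. With limma-voom, whose median over all genes was -0.09, they were 0.61 for Ahr, -0.52 for Arnt, -1.27 for Cyp1b1, 0.23 for Tiparp and 1.08 for Nqo1. Limma-voom called 3312 genes higher and 5545 lower, beside 4528 and 4352. Cyp1a1 stayed between 2.91 and 3.24. The number of AHR complex genes that fell was 2 with quantile normalization, 0 at an adjusted p under 0.01, and 0 to 1 leaving out a library. The number of other bHLH-PAS factors that rose was 0 with no filter, with limma-voom and at an adjusted p under 0.01, 2 with quantile normalization, and 0 to 2 leaving out a library. The number of NRF2 regulators that fell was 2 with quantile normalization and with limma-voom. The sign of Clock was reversed with quantile normalization (-0.0067). In the 250 upstream bases alone, 28.2% of promoters held GCGTG, 6.02% CACGTG and 35.2% TGANNNNGC. The cause of these shifts was not tested, beyond the shorter window of the last. The labels' replicate numbers do not pair the libraries: same-numbered libraries correlated by -0.023 to 0.034 in their deviations from group means, and only some correlated best with their own number (1 of 4 Atad2 and 2 of 4 control libraries). With the replicate block, 4562 genes were higher and 4379 lower, the counts of all 7 lists were the same, and the members' log2 fold changes did not move. Depth limits the weaker genes: Ahrr had 102 to 241 reads per library, Slc46a3 12 to 38 per Atad2 library, and Cyp1a2 12 at most.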
